A study of Mus musculus with 6 samples.

Results

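Interferon-stimulated genes are the genes that cells switch on when they sense interferon. A panel of 39 of them, listed by gene symbol, was followed in primary ovarian tumors grown in wild-type (WT) and *Tgm2* knockout mice. *Tgm2* encodes the crosslinking enzyme transglutaminase 2 (TG2). All 39 were found among the 20076 genes measured, *Ddx58* under its newer symbol *Rigi*, and all 39 passed the filter on low values, as did 19667 genes in all. The tumors came from injected ID8 *Trp53*-/- *Brca1*-/- cells. In this murine ovarian cancer line both tumor suppressor genes had been knocked out with CRISPR-Cas9, and the cells were placed under the bursa of both ovaries. The hosts were C57BL/6 WT mice or *Tgm2* knockout mice, aged 6 to 10 weeks, and the primary tumors were collected 6 weeks after injection. There were 3 WT and 3 knockout tumors, each labelled as a numbered replicate, and p-values measure the spread between these tumors. The injected cells carry *Tgm2* and were the same for both genotypes, so that the host cells of a tumor, and not its cancer cells, lacked the gene. The comparison asks whether loss of TG2 from the tumor microenvironment (TME) is accompanied by a different interferon response in the tumor.

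Interferons are secreted signals that act on the cells of a tissue through distinct receptors. Type I interferons, such as interferon beta, and type III interferons, the interferon lambdas, activate a complex that includes STAT2 and IRF9 and binds the interferon-stimulated response element (ISRE) of antiviral genes. Type II interferon, interferon gamma, is made mainly by T cells and NK cells and acts on the gamma-activated site (GAS). Many genes answer to both signals, but guanylate-binding proteins, immunity-related GTPases and the class II transactivator are textbook targets of interferon gamma, while the IFIT, MX and OAS genes are textbook targets of type I interferon. Tumor cells, macrophages, dendritic cells and lymphocytes can all carry such transcripts. In bulk RNA, fewer cells of a type and less RNA per cell cannot be told apart.

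RNA enriched for polyA was sequenced, and the authors deposited 1 value per gene and tumor, scaled for sequencing depth. The values, labelled TPM, were taken as normalized counts. They are not divided by gene length on that scale, so the most abundant marker of a list means the one with the highest mean normalized count, not the most transcripts. The sum of all normalized counts was 34801694, 35325875 and 33916288 for WT tumors 1 to 3, and 32316613, 35827822 and 37717165 for knockout tumors 1 to 3. Single values of a group are given in this order throughout. As a check of the genotypes, *Tgm2* measured 14978, 12155 and 13180 normalized counts in WT tumors and 5853, 6071 and 8157 in knockout tumors. Each knockout tumor was below each WT tumor, with a log2 fold change of -1.02 (SE 0.22, adjusted p = 0.391 in limma). An exact permutation test, two-sided, gave p = 0.1, which is as low as 3 tumors against 3 can reach. WT tumor 3 stood apart in its share of transcripts from the 13 mitochondrially encoded genes, which was 7.0%, against 1.79% and 2.02% in WT tumors 1 and 2 and 3.59%, 2.32% and 2.58% in knockout tumors. The labels give cancer cells as the cell type. Markers of the line and of ovarian surface epithelium were present in every tumor (*Krt8* at 10373 to 21948 normalized counts), and so were leukocyte markers (*Ptprc*, the CD45 gene, at 1583 to 3173). The labels name no batch.

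Of the 39 interferon-stimulated genes, the mean log2 value (log2 mean) of the knockout tumors was higher for 12 and lower for 27, and 0 passed the limits of an adjusted p of 0.05 with an absolute log2 fold change of 1 in limma. Those limits were passed by 20 of all 19667 genes tested (0.102%), so 0 of 39 is no result about the panel. By the mean normalized count 10 were higher and 29 lower, since *Ifit2* and *Parp14* change sides. Genes counted as having higher or lower means are counted by log2 means throughout. At an unadjusted p under 0.05, 3 members were higher (*Gbp7*, *Igtp* and *Gbp2*), against 3.4% of all genes, and 4 were lower (*Mx2*, *Mx1*, *Oas2* and *Oasl1*), against 2.38% of all genes. The 3 knockout tumors lay wholly above the 3 WT tumors for 1 member, *Gbp7*, against 5.18% of all genes, and wholly below for 4, *Mx1*, *Mx2*, *Oas2* and *Trim25*, against 5.33%. The median log2 fold change of the members was -0.26, against -0.027 for all genes tested. The members did not share a direction. The 6 members of the guanylate-binding protein (GBP) and immunity-related GTPase (IRG) families all had higher log2 means in knockout tumors, with log2 fold changes from 0.42 to 1.14 and a median of 0.83. Of the other 33 members 6 had higher and 27 had lower log2 means, from -1.46 to 0.32 with a median of -0.29. The lowest adjusted p of any member was 0.644, so no single gene of the panel was shown to differ between genotypes.

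**Figure D1:**
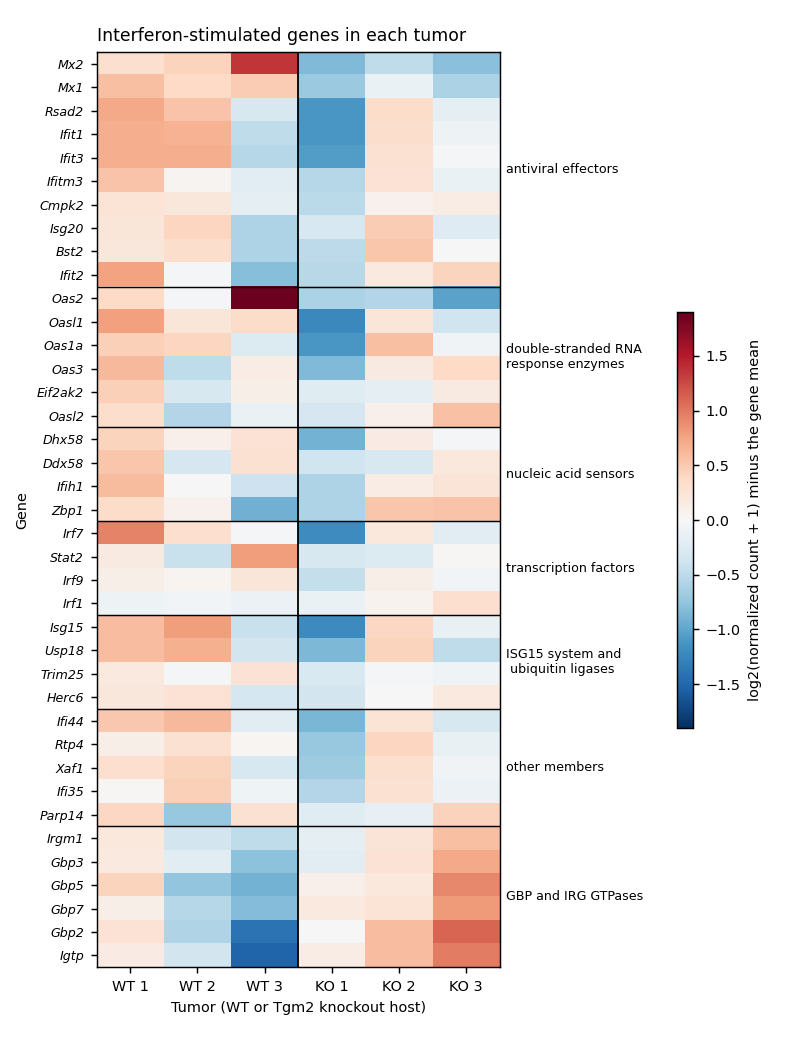
Heat map of the 39 interferon-stimulated genes (rows, grouped by role) in the 3 WT and 3 *Tgm2* knockout (KO) tumors (columns). Colour gives log2(normalized count + 1) minus the mean of the gene over the 6 tumors. KO tumor 1 was the lowest tumor for 24 of the 33 genes above the bottom block, while in the bottom block of 6 GBP and IRG genes WT tumor 3 was the lowest and KO tumor 3 the highest in every row.

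The letters of the response element can be seen in the DNA of some members. RefSeq promoter windows of 300 bases, from 250 before to 50 after the start site (GRCm38.p6), were matched for 31 of the 39 members. The 8 without a matched window, which were not searched, were *Mx1*, *Mx2*, *Oas2*, *Dhx58*, *Zbp1*, *Usp18*, *Rtp4* and *Parp14*. The windows were searched on both strands for the core letters of the ISRE, GAAANNGAAA, and for those of the GAS, TTCNNNGAA. The 2 motifs can overlap. The ISRE letters were in 18 of 31 members, against 3.99% of 27025 genes with a window and 3.44% of all 32851 windows, and the GAS letters were in 11 of 31, against 9.55% of genes and 8.3% of windows. The ISRE letters were in 6 of 6 GBP and IRG genes, in 5 of 8 matched antiviral effectors, in 3 of 5 double-stranded RNA enzymes and in 2 of 2 sensors. They were in 1 of 4 transcription factors, in 1 of 3 genes of the ISG15 system and in 0 of 3 of the remaining members. The GAS letters were in 3 of 6 GBP and IRG genes and in 4 of 8 antiviral effectors. Both motifs were in *Gbp5*, *Gbp7* and *Igtp* and also in *Bst2*, *Eif2ak2*, *Ifitm3* and *Oas1a*. A match of letters describes the window and is not a measured binding site. The stretches below show the ISRE letters of 4 genes of the antiviral program and of 2 GBP and IRG genes, with the match in capitals (a match on the other strand reads TTTCNNTTTC) and 15 bases on each side, written 5′ to 3′ on the strand of the gene. They lie at chr19:34640770-34640828 for *Ifit1*, chr19:34583358-34583431 for *Ifit3*, chr4:156200860-156200911 for *Isg15* (minus strand), chr12:26456548-26456587 for *Rsad2* (minus strand), chr3:142530268-142530307 for *Gbp7* and chr11:58199507-58199546 for *Igtp*.
Ifit1: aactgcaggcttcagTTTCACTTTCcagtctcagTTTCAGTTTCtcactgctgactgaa
Ifit3: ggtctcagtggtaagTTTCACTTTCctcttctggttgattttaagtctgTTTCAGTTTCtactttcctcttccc
Isg15: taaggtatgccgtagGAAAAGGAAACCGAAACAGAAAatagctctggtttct
Rsad2: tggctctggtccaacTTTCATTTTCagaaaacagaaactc
Gbp7: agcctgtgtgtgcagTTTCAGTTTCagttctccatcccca
Igtp: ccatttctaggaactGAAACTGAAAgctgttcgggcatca
*Ifit1* and *Ifit3* carried 2 copies each in these stretches and *Isg15* carried 3 overlapping ones, while *Rsad2*, *Gbp7* and *Igtp* carried 1 each. The nearest copy ended 76 bases before the start site in *Ifit1*, 113 in *Ifit3*, 57 in *Isg15*, 111 in *Rsad2*, 44 in *Gbp7* and 25 in *Igtp*.

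The antiviral effectors are proteins that act on viral RNA, particles or membranes. Of these 10 genes, 8 had lower and 2 had higher log2 means in knockout tumors (by the mean normalized count, 9 and 1), with a median log2 fold change of -0.41. Mx proteins are dynamin-like GTPases that trap viral nucleoproteins, although inbred laboratory strains carry defective copies, so here the transcripts serve as readouts of interferon. *Mx2* (chr16:97535308-97560900 on GRCm38) measured 258, 277 and 532 normalized counts in WT tumors and 115, 148 and 119 in knockout tumors. *Mx1* (chr16:97447035-97462907) measured 437, 385 and 410 in WT tumors and 181, 269 and 194 in knockout tumors. For both genes the groups did not overlap, and *Mx1* was tightly grouped within each genotype, at 411 ± 26.1 in WT and 215 ± 47.5 in knockout tumors (SD, n = 3). The log2 fold change was -1.40 for *Mx2* (SE 0.38, adjusted p = 0.644 in limma). It was -0.95 for *Mx1* (SE 0.29, adjusted p = 0.682 in limma), so neither passed adjustment.

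*Rsad2* encodes viperin, an enzyme that makes a chain-terminating nucleotide. It measured 1533, 1359 and 753 normalized counts in WT tumors and 431, 1183 and 822 in knockout tumors, with a log2 fold change of -0.63 (SE 0.41). *Ifitm3* encodes a membrane protein that blocks the entry of viruses. It measured 16641, 11854 and 9963 in WT tumors and 7840, 13782 and 10408 in knockout tumors, with a log2 fold change of -0.27 (SE 0.29). The groups overlapped for both genes. *Ifit1* and *Ifit3*, which bind foreign RNA, lie beside *Ifit2* on chromosome 19 between 34550694 and 34650009. *Ifit1* measured 3636, 3530 and 1600 normalized counts in WT tumors and 1046, 2828 and 2102 in knockout tumors, which placed WT tumor 3 with the knockout tumors and not with WT tumors 1 and 2. *Ifit3* followed the same order, with a log2 fold change of -0.55 beside -0.57 for *Ifit1*, and its value is uncertain where reads could be shared with its near copy *Ifit3b*. The remaining 4 effectors had log2 fold changes between -0.20 and 0.051, for *Cmpk2*, the exonuclease gene *Isg20*, the tetherin gene *Bst2* and *Ifit2*, and all 4 overlapped between genotypes.

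**Figure D2:**
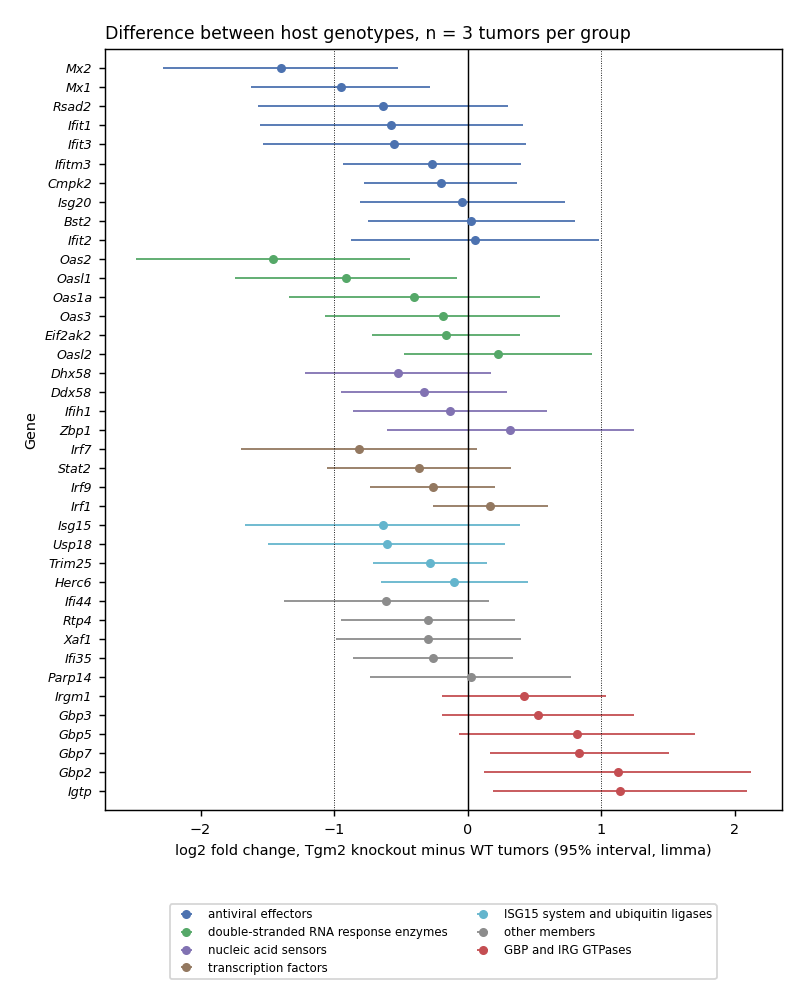
Log2 fold change of each of the 39 genes, knockout minus WT tumors (x axis), with its 95% interval from limma (n = 3 tumors per group), coloured by role. The dotted lines mark an absolute log2 fold change of 1. The points of the 6 GBP and IRG genes all lie to the right of 0, from 0.42 to 1.14, while 27 of the other 33 points lie to the left.

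Double-stranded RNA, a sign of infection or of transcribed repeats, is met by the oligoadenylate synthetases (OAS), whose product activates RNase L, and by the kinase PKR, encoded by *Eif2ak2*. Of these 6 genes 5 had lower log2 means in knockout tumors, with a median log2 fold change of -0.29. *Oas2* (chr5:120730333-120749853) measured 1275, 955 and 3568 normalized counts in WT tumors and 646, 666 and 485 in knockout tumors. All knockout tumors were below all WT tumors, but WT tumor 3 alone was far above the rest. The log2 fold change of *Oas2* was -1.46 (SE 0.45, adjusted p = 0.689 in limma), and it was -0.89 without WT tumor 3. *Oasl1*, a relative without synthetase activity that restrains translation of *Irf7*, measured 1619, 1104 and 1192 in WT tumors and 402, 1106 and 720 in knockout tumors. Knockout tumor 2 overlapped the WT range of *Oasl1*, and the log2 fold change was -0.91 (SE 0.36, adjusted p = 0.819 in limma), or -0.53 without knockout tumor 1. *Oas1a* measured 2455, 2371 and 1493 in WT tumors and 828, 2660 and 1715 in knockout tumors, with a log2 fold change of -0.40 (SE 0.41). Without knockout tumor 1 the sign of *Oas1a* changed, to 0.055. *Oasl2* was the exception in direction, with 10936, 5912 and 7983 in WT tumors and 6940, 9307 and 12745 in knockout tumors and a log2 fold change of 0.22 (SE 0.31). *Oas3* and *Eif2ak2* overlapped between genotypes, at -0.19 and -0.16.

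The nucleic acid sensors find viral or self RNA and DNA in the cytoplasm. Of 4 such genes 3 had lower log2 means, with a median log2 fold change of -0.23, and all 4 overlapped between genotypes. *Dhx58*, which encodes the RIG-I regulator LGP2, measured 1034, 817 and 924 normalized counts in WT tumors and 410, 856 and 745 in knockout tumors (log2 fold change -0.53, SE 0.30). *Ddx58*, which encodes RIG-I itself, measured 3774, 2086 and 3199 in WT tumors and 2004, 2109 and 2999 in knockout tumors (-0.33, SE 0.27). *Zbp1*, a sensor of Z-form nucleic acid that can trigger necroptosis, measured 2750, 2306 and 1151 in WT tumors and 1448, 3125 and 3140 in knockout tumors (0.32, SE 0.40). The low values of *Zbp1* were in WT tumor 3 and knockout tumor 1. *Ifih1*, the MDA5 gene, was at -0.13.

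Among the 4 transcription factors, which carry the interferon signal to the genome, 3 had lower log2 means, with a median log2 fold change of -0.31. *Irf7* (chr7:141262706-141266481), the factor that amplifies type I interferon production, measured 8330, 5358 and 4189 normalized counts in WT tumors and 1879, 4941 and 3719 in knockout tumors. The ranges overlapped, with the WT mean at 5959 ± 2135 and the knockout mean at 3513 ± 1541 (SD, n = 3). The log2 fold change was -0.81 (SE 0.39, adjusted p = 0.881 in limma), and it was -0.42 without knockout tumor 1. *Stat2* measured 2300, 1519 and 3521 in WT tumors and 1644, 1698 and 2059 in knockout tumors (-0.37, SE 0.30). Leaving out 1 tumor at a time gave -0.67 to -0.062 for *Stat2*. *Irf9* measured 2658, 2566 and 2894 in WT tumors and 1798, 2672 and 2374 in knockout tumors (-0.26, SE 0.20), or -0.10 without knockout tumor 1. These 2 genes encode parts of the type I complex, and in both the highest tumor was WT tumor 3. *Irf1*, a factor that responds strongly to interferon gamma, was at 0.17 (SE 0.19) and was the only one of the 4 with a higher log2 mean.

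ISG15 is a ubiquitin-like protein that is attached to other proteins after interferon. All 4 genes of this system and of linked ubiquitin ligases had lower log2 means, with a median log2 fold change of -0.44. *Isg15* measured 3747, 4345 and 1859 normalized counts in WT tumors and 1076, 3286 and 2274 in knockout tumors. *Usp18*, which removes ISG15 and damps the type I receptor, measured 1624, 1717 and 850 in WT tumors and 597, 1445 and 776 in knockout tumors. As for *Ifit1*, WT tumor 3 was among the knockout values of both genes and knockout tumor 1 was the lowest. Their log2 fold changes were -0.64 for *Isg15* (SE 0.45) and -0.61 for *Usp18* (SE 0.39). *Trim25*, the ligase that activates RIG-I, measured 5084, 4374 and 5447 in WT tumors and 3654, 4355 and 4245 in knockout tumors. Its groups did not overlap, but the gap was small (4374 against 4355), and the log2 fold change was -0.28 (SE 0.19, adjusted p = 0.891 in limma). *Herc6*, the main ISG15 ligase in mice, was at -0.10.

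Of the 5 remaining members, whose roles are mixed, 4 had lower log2 means (5 by the mean normalized count), and all 5 overlapped between genotypes. *Ifi44* measured 2077, 2222 and 1246 normalized counts in WT tumors and 797, 1731 and 1171 in knockout tumors (log2 fold change -0.61, SE 0.33). *Rtp4* measured 1778, 2008 and 1695 in WT tumors and 1002, 2193 and 1486 in knockout tumors (-0.30, SE 0.29). *Ifi35* measured 1859, 2510 and 1742 in WT tumors and 1251, 2239 and 1694 in knockout tumors (-0.26, SE 0.26). In all 3 genes knockout tumor 1 was the lowest, and without it *Rtp4* was at -0.013 and *Ifi35* at -0.046. *Parp14*, an ADP-ribosyltransferase of macrophages and B cells, measured 3208, 1483 and 2973 in WT tumors and 2071, 2177 and 3291 in knockout tumors (0.023, SE 0.33). *Xaf1* was at -0.29, or -0.033 without knockout tumor 1.

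The GBP and IRG proteins are GTPases that coat and break the vacuoles of intracellular microbes. They are the guanylate-binding proteins *Gbp2*, *Gbp3*, *Gbp5* and *Gbp7*, which lie together on chromosome 3 between 142493978 and 142638008, and the immunity-related GTPases *Igtp* and *Irgm1* on chromosome 11. *Gbp7* (chr3:142530342-142550149) measured 1311, 834 and 683 normalized counts in WT tumors and 1382, 1452 and 2118 in knockout tumors. Its lowest knockout tumor was just above its highest WT tumor, and the log2 fold change was 0.84 (SE 0.29, adjusted p = 0.776 in limma). *Igtp* (chr11:58199556-58207591) measured 4157, 2914 and 1296 in WT tumors and 4105, 5583 and 7303 in knockout tumors, with a log2 fold change of 1.14 (SE 0.42, adjusted p = 0.796 in limma). *Gbp2* (chr3:142620602-142638008) measured 8575, 4762 and 2679 in WT tumors and 7068, 10543 and 15154 in knockout tumors, with a log2 fold change of 1.12 (SE 0.44, adjusted p = 0.819 in limma). *Igtp* and *Gbp2* overlapped through WT tumor 1, which was above knockout tumor 1. The mean of the knockout tumors was 2.03 times the WT mean for *Igtp* and 2.05 times for *Gbp2*. *Gbp5*, *Gbp3* and *Irgm1* were at 0.82, 0.53 and 0.42, each with overlap between genotypes. The 6 genes shared 1 order at its ends. WT tumor 3 was the lowest in 6 of 6, as it was for 21.9% of all genes, and knockout tumor 3 was the highest in 6 of 6, as it was for 17.4% of all genes. Without WT tumor 3 the median log2 fold change of the GBP and IRG genes was 0.60, from 0.27 for *Gbp3* to 0.66 for *Igtp* and 0.70 for *Gbp2*, and 0 of the 39 members were higher at an unadjusted p under 0.05, against 3.03% of all genes, so that 0 is no result about the members. The GBP and IRG families hold closely similar genes, so reads may have been split between them.

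**Figure D3:**
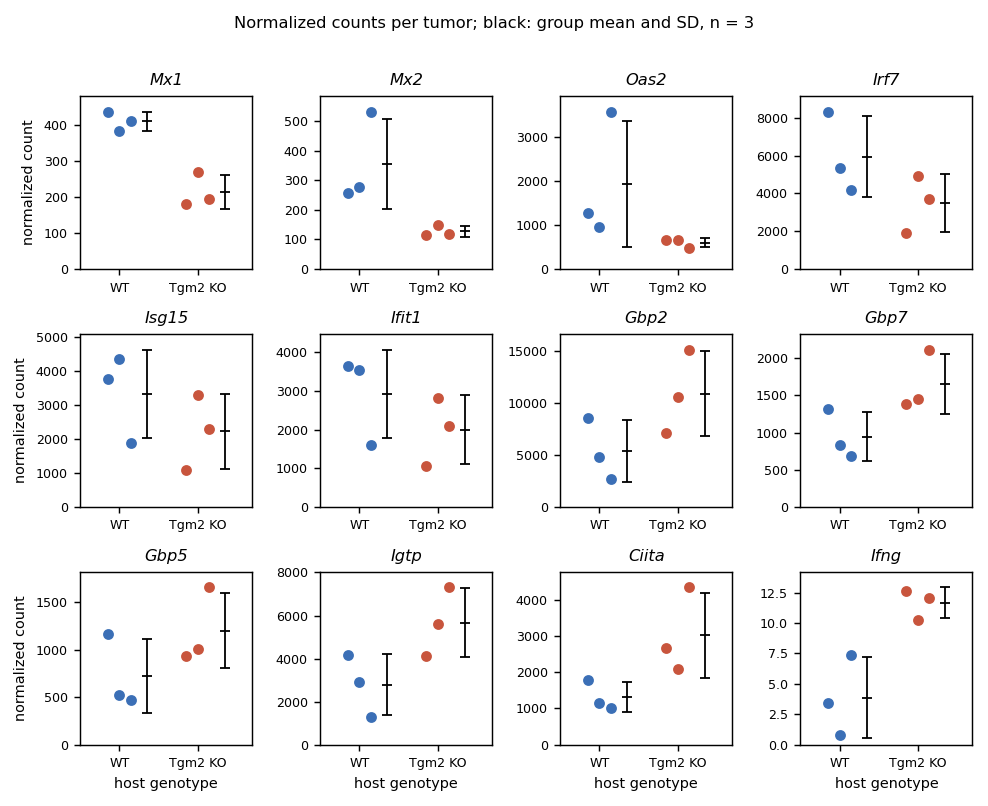
Normalized counts (y axis, from 0) of 10 members and of *Ciita* and *Ifng* in WT (blue) and *Tgm2* knockout (red) tumors, 1 point per tumor, with the group mean and SD in black (n = 3). The groups do not overlap for *Mx1*, *Mx2*, *Oas2*, *Gbp7*, *Ciita* and *Ifng*, and they overlap in the other panels. *Ifng* reaches only 12.7 normalized counts.

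The 33 members outside the GBP and IRG families, *Mx1* and *Mx2* among them, followed another order. Knockout tumor 1 was the lowest of the 6 tumors for 24 of 33, as it was for 15.8% of all genes, and WT tumor 1 was the highest for 14 of 33, as it was for 10.7% of all genes. Their mean log2 value was 11.25, 10.99 and 10.80 in WT tumors and 10.16, 10.97 and 10.78 in knockout tumors. Knockout tumors 2 and 3 thus lay at the level of WT tumors 2 and 3, and knockout tumor 1 lay below all others. Knockout tumor 1 also stood apart in markers of granulosa cells of the ovary, with *Amh* at 2766 normalized counts, against 129 to 302 in the other 5 tumors, and *Foxl2* at 1282, against 23.7 to 219. The part of this tissue in the low values of knockout tumor 1 was not tested. Without knockout tumor 1 the median log2 fold change of these 33 genes was -0.088, against -0.29 with all tumors. Single members were then at -0.19 for *Isg15*, -0.33 for *Usp18*, -0.17 for *Ifit1*, -0.15 for *Ifit3*, -0.24 for *Rsad2*, -0.21 for *Dhx58* and -0.33 for *Ifi44*. *Mx1* moved less, to -0.84 without knockout tumor 1 from -0.95 with all tumors. *Mx2* was between -1.59 and -1.07 whichever single tumor was left out. Without WT tumor 3 the median of the 33 was -0.36. In that smaller comparison 8 of the 39 members were lower at an unadjusted p under 0.05, against 1.48% of all genes, and 14 had wholly lower knockout values, against 9.30% of all genes. The mean log2 value of the 6 GBP and IRG genes was 11.63, 10.94 and 10.42 in WT tumors and 11.41, 11.76 and 12.25 in knockout tumors, with overlap. The difference of the 2 means within a tumor, GBP and IRG genes minus the other 33, was 0.38, -0.049 and -0.38 in WT tumors and 1.25, 0.79 and 1.48 in knockout tumors. All knockout tumors were above all WT tumors in this difference, by 1.19 between the group means. It describes the chosen members, was given no p, and does not show that either group of genes differed on its own. This difference was not among the planned comparisons, and the members were chosen with earlier results of these data known. Its lack of overlap is therefore no support for a difference between genotypes.

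**Figure D4:**
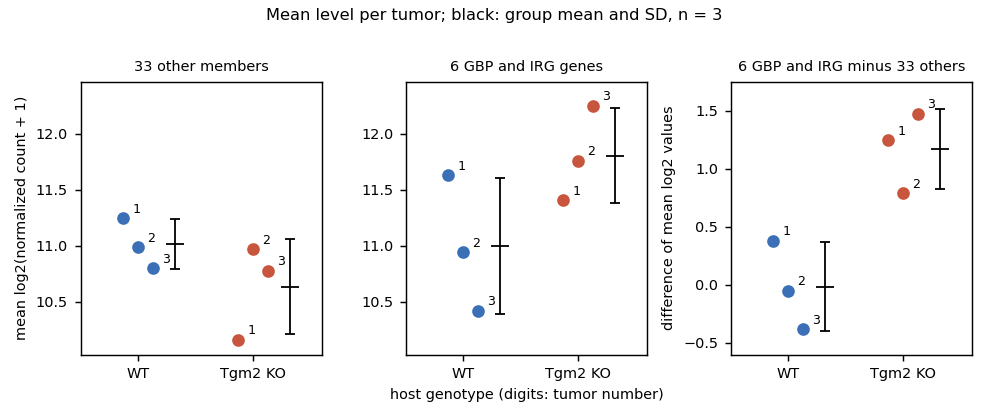
Mean log2(normalized count + 1) per tumor of the 33 members outside the GBP and IRG families (left), of the 6 GBP and IRG genes (middle), and the difference of these 2 means within each tumor (right), by host genotype. Points are tumors, numbered 1 to 3, and black bars give the group mean and SD (n = 3). The levels of the genotypes overlap in the left and middle panels, and in the right panel the knockout tumors (0.79 to 1.48) lie above the WT tumors (-0.38 to 0.38). The difference in the right panel was not among the planned comparisons and is a description only.

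To place the members in their pathway, 121 further genes were listed, of which 102 were analysed here. Their log2 means split evenly, 51 higher and 51 lower in knockout tumors, with 0 past the limits in limma, against 0.102% of all genes. At an unadjusted p under 0.05, 6 of the 102 were higher, against 3.4% of all genes, and 5 were lower, against 2.38%. Of 21 listed interferon genes, 4 were analysed, each at a low level. *Ifng* (interferon gamma) measured 3.38, 0.774 and 7.39 normalized counts in WT tumors and 12.7, 10.2 and 12.1 in knockout tumors, so that the groups did not overlap. *Ifnb1* (interferon beta) measured 12.2, 2.07 and 4.06 in WT tumors and 0, 0.98 and 2.18 in knockout tumors, with overlap between 2.07 and 2.18. The log2 fold change was 1.65 for *Ifng* (SE 0.78) and -1.68 for *Ifnb1* (SE 0.86). These sizes depend on the pseudocount, with 0.67 and -0.50 for a pseudocount of 10. Neither passed adjustment in limma (adjusted p = 0.881 and 0.887), and both values rest on few counts per tumor. *Ifne*, an interferon of reproductive epithelium, measured 0, 7.26 and 79.6 in WT tumors and 16.1, 16.7 and 0 in knockout tumors, and *Ifnz* was at 0 in 3 of the 6 tumors.

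The 6 receptor chains had log2 fold changes from -0.81 to 0.24, and 1 of them was lower at an unadjusted p under 0.05, against 2.38% of all genes. *Ifnlr1*, the specific chain of the type III receptor, measured 421, 310 and 728 normalized counts in WT tumors and 270, 255 and 253 in knockout tumors, without overlap (-0.81, SE 0.35, adjusted p = 0.861 in limma). Without WT tumor 3 it was at -0.48. *Ifnar2* of the type I receptor measured 3485, 3838 and 2106 in WT tumors and 2881, 4113 and 3879 in knockout tumors (0.24, SE 0.27). *Ifngr2* of the interferon gamma receptor measured 3414, 5116 and 4202 in WT tumors and 3076, 4303 and 4022 in knockout tumors (-0.15, SE 0.23), and both of these genes overlapped. *Jak1*, a kinase used by all interferon receptors, measured 7646, 5349 and 4737 in WT tumors and 7894, 6441 and 8127 in knockout tumors (0.36, SE 0.24), with overlap.

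Among 13 genes that sense nucleic acids or induce interferon, 7 had higher log2 means. *Irf8*, a factor of dendritic cells, macrophages and B cells, measured 1412, 1197 and 862 normalized counts in WT tumors and 1236, 2012 and 2475 in knockout tumors (0.69, SE 0.30). *Ticam1*, the adaptor of TLR3, measured 744, 649 and 620 in WT tumors and 912, 809 and 930 in knockout tumors (0.40, SE 0.21). *Mavs*, the adaptor of RIG-I, measured 3894, 3391 and 3647 in WT tumors and 3959, 3979 and 5777 in knockout tumors (0.31, SE 0.21). Without knockout tumor 3 *Mavs* was at 0.13. *Ticam1* and *Mavs* did not overlap between genotypes, and none of the 3 passed an unadjusted p of 0.05. Among 9 negative regulators 6 had higher log2 means. *Irf2*, which competes with IRF1, measured 1426, 999 and 1551 in WT tumors and 1559, 1672 and 2014 in knockout tumors (0.42, SE 0.23). *Socs3* measured 3236, 2606 and 1960 in WT tumors and 1796, 2298 and 1984 in knockout tumors (-0.34, SE 0.23). *Samhd1*, which depletes nucleotides, measured 11039, 6015 and 5535 in WT tumors and 7206, 7623 and 14099 in knockout tumors (0.36, SE 0.35). The 2 groups of tumors did not overlap for *Irf2* and overlapped for *Socs3* and *Samhd1*.

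Of 66 further interferon-stimulated genes 31 had higher and 35 had lower log2 means, with a median log2 fold change of -0.026, close to that of all genes. Close relatives of the members were also listed. Of 8 other GBP, IRGM and TGTP genes 7 had higher log2 means (median 0.58), with *Tgtp1* at -0.13, while 5 of 5 other OAS and IFIT genes had lower log2 means (median -0.81). Since relatives can share reads with the members, they are not separate support. *Ifi47*, another IRG gene counted outside these 8, measured 3066, 3743 and 2970 in WT tumors and 2351, 3792 and 3823 in knockout tumors, with nearly equal log2 means. *Gbp8* measured 859, 751 and 886 normalized counts in WT tumors and 1175, 1274 and 1482 in knockout tumors, without overlap (0.65, SE 0.20, adjusted p = 0.682 in limma). *Irgm2*, at 0.80, also did not overlap, and *Oas1b* and *Oas1g* did not overlap in the other direction, at -1.28 and -1.11 (these 3 genes were chosen after their values were seen).

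*Ciita*, the class II transactivator that switches on antigen presentation to CD4+ T cells, measured 1793, 1161 and 1019 normalized counts in WT tumors and 2668, 2084 and 4356 in knockout tumors. The groups did not overlap, and the log2 fold change was 1.17 (SE 0.32, adjusted p = 0.644 in limma). *Rnf213*, a large ubiquitin ligase, measured 33815, 16520 and 29620 in WT tumors and 19476, 16952 and 28994 in knockout tumors (-0.26, SE 0.35). A pair of chemokines that draw T cells was chosen after their values were seen, and the difference between the 2 genes was not tested. *Cxcl9*, which depends on interferon gamma, measured 2131, 764 and 321 in WT tumors and 1626, 5372 and 8048 in knockout tumors (2.35, SE 0.74, adjusted p = 0.714 in limma). *Cxcl10*, which type I interferon also induces, was at -0.074 (SE 0.49). WT tumor 1 was above knockout tumor 1 for *Cxcl9*, so its groups overlapped. Its log2 fold change was 1.69 without WT tumor 3 and 1.87 without knockout tumor 3, and 3.06 and 3.03 without WT tumor 1 or knockout tumor 1. With the white adipocyte or the leukocyte marker level as a covariate it was 0.37 or 0.97.

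Markers of immune and other cell types were set beside these values. Of 10 leukocyte markers 9 had higher log2 means in knockout tumors, and their summed normalized counts were 36377, 26875 and 20869 in WT tumors and 25554, 44608 and 48805 in knockout tumors. WT tumor 3 had the lowest and knockout tumor 3 the highest sum, as for the GBP and IRG genes. The order was not particular to leukocytes, since 10 housekeeping genes, with 7 higher log2 means, summed to 390388, 363345 and 214048 in WT tumors and 289563, 390535 and 415810 in knockout tumors, with the same tumors at the ends. The most abundant leukocyte marker, *Laptm5*, was at 4461 to 8914 in WT and at 5923 to 11656 in knockout tumors. T cell markers had higher log2 means for 12 of 12 genes, with sums of 2510, 1607 and 1483 in WT tumors and 2536, 2924 and 4708 in knockout tumors, and *Trac* was the most abundant at 195 to 689. NK cell markers had higher log2 means for 7 of 8, with sums of 188 to 293 in WT and 296 to 532 in knockout tumors and *Klrd1* at 46.6 to 122. Both sums were highest in knockout tumor 3, while *Klrd1* was highest in knockout tumor 2 and *Ifng*, which these cells make, in knockout tumor 1.

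Macrophage markers had higher log2 means for 10 of 10 genes, with sums of 58636, 40922 and 24732 in WT tumors and 29946, 84102 and 64998 in knockout tumors, *C1qa* being the most abundant. Plasmacytoid dendritic cells, the main producers of type I interferon, had higher log2 means for 8 of 10 markers and lower ones for 2. Their median log2 fold change was 0.44, from -0.67 for *Spib* to 1.94 for *Pacsin1*. The sums were 14348, 12970 and 8558 in WT and 11208, 16074 and 14734 in knockout tumors. The most abundant of these markers, *Bst2* at 5157 to 11250, is itself a member. *Siglech*, which defines these cells, was at 36.0 to 57.2 in WT and 42.1 to 80.7 in knockout tumors. Conventional dendritic cell markers had higher log2 means for 7 of 8, and the mean log2 value of that list did not overlap between genotypes (7.31 to 7.73 in WT, 8.20 to 8.95 in knockout), with *Itgax* the most abundant. The same held for the B cell list (*Cd79a* at 74.1 to 114 in WT and 593 to 1022 in knockout), for the plasma cell list (*Jchain* at 1461 to 2511 and 42273 to 67245) and for the white adipocyte list (*Lpl* at 18297 to 28141 and 22941 to 41918). Neutrophil markers had higher log2 means for 2 of 8 and higher mean normalized counts for 4 of 8, with *Ly6g* and *Camp* at 0 in at least 1 tumor and *Csf3r* at 175 to 743.

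Fibroblast markers (9 of 9 higher in mean, *Col3a1* at 22485 to 91251), endothelial markers (6 of 8, *Pecam1* at 1830 to 3640) and cancer line or ovarian surface markers (3 of 10, *Wt1* at 13131 to 20641) overlapped between genotypes. The oviduct gene *Ovgp1* ranged from 91.0 in knockout tumor 3 to 55944 in knockout tumor 2, with wide differences within both genotypes. With the mean of the leukocyte markers as a covariate, the median log2 fold change was 0.36 for the GBP and IRG genes and -0.65 for the other 33 members. In that fit 0 members were higher and 16 were lower at an unadjusted p under 0.05, against 3.66% and 1.63% of all genes. After adjustment 0 members passed the limits, against 9 of all 19667 genes. With the white adipocyte markers as covariate the medians were 0.33 and -1.10, with 0 higher and 15 lower members, against 4.37% and 4.92% of all genes. The adipocyte list did not overlap between genotypes, so that host genotype and adipocyte content cannot be told apart in 6 tumors, and the part of each cell type in the values of the members was not tested.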

How the data were processed

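Bulk RNA from 3 WT and 3 *Tgm2* knockout primary tumors was analysed. Per the labels and methods, the authors quantified transcripts with kallisto 0.46.2 on GRCm38, mapped transcripts to genes with biomaRt, filtered out low-expressed ones and scaled for depth with the estimateSizeFactors function of DESeq2. The deposited values are called TPM but sum to 32316613 to 37717165 per tumor, so they were taken as a signal in normalized counts. The design had assumed TPM; the limma test was kept. Values were converted to log2(value + 1), and 19667 of 20076 genes with at least 1 in at least 3 tumors were fitted in limma 3.58.1 (R 4.3.3) with a variance trend, no covariate and Benjamini-Hochberg adjustment over all of them. Calls needed an adjusted p under 0.05 and an absolute log2 fold change over 1. All tests were two-sided. A fold change on this scale is understated for low values. The fit was tested on simulated data. Depth per tumor before scaling was not estimated here, so no counting intervals are given.

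The members, pathway lists and marker lists were chosen with earlier results of these data known. Named genes are, in each role class, the 3 members with the smallest unadjusted p and the one with the highest mean log2 value; in each pathway class the 2 smallest p and the most abundant gene; *Irf7*, *Isg15*, *Ifng*, *Ifnb1* and *Tgm2* in any case; and the most abundant gene of each marker list. Values of 1 such gene are left out here. Other genes with values in every tumor were chosen after their values were seen. Positions are from GENCODE M21 on GRCm38. Kallisto splits reads among similar transcripts by estimate, so values of near copies are uncertain. Alternatives changed the pseudocount, filter, scaling, variance trend and weights, added a replicate block or a marker covariate, or dropped single tumors.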

Additional observations from a re-analysis of the deposited data

How the results depend on the processing

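Under all 17 alternatives 0 members passed the limits. Of all genes tested only 0 (white adipocyte covariate) to 21 (array weights) passed them, so that 0 is no result about the members. The lowest adjusted p among 59 single genes (members, named pathway genes and *Tgm2*, without the marker genes) was 0.188 (*Tgm2*, quantile normalization). Of these 59 genes, 37 kept their direction under every alternative run for them (16 for *Ifnb1*, 17 for the others). Leaving out 1 tumor at a time, the members higher at an unadjusted p under 0.05 numbered 0 to 4 (0 without WT tumor 3 or knockout tumor 3) and the lower ones 3 to 8 (8 without WT tumor 3 or knockout tumor 2), while the shares of all genes were 2.68% to 4.46% and 1.17% to 3.58%. Members with wholly higher knockout values numbered 1 to 7 (6 without WT tumor 1, 7 without knockout tumor 1) and wholly lower ones 4 to 14 (8 without WT tumor 2, 14 without WT tumor 3, 12 without knockout tumor 2). Groups of 3 and 2 separate more easily, and the shares of all genes were 9.0% to 12.01% wholly higher and 7.81% to 12.9% wholly lower, against 5.18% and 5.33% with all tumors. The replicate numbers did not pair the tumors: over 14092 genes, tumors of the same number deviated together with correlations of -0.28, 0.41 and -0.43. Between tumors of different numbers the correlations ran from -0.33 to 0.53. The highest were 0.53 for WT tumor 1 with knockout tumor 3 and 0.45 for WT tumor 3 with knockout tumor 1. With the replicate block, 1 member was higher and 3 were lower at an unadjusted p under 0.05, against 3.56% and 2.38% of all genes. Without the variance trend 1 was higher, against 3.41%, and after quantile normalization 2 members had wholly higher knockout values, against 5.15%.

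The white adipocyte covariate gave medians of -0.91 for the members and -1.10 for the 33 outside the GBP and IRG families, with 0 members higher and 15 lower at an unadjusted p under 0.05 (4.37% and 4.92% of all genes), and the leukocyte covariate gave -0.65 for the 33, with 0 higher and 16 lower (3.66% and 1.63%). The cause was not tested. The following log2 fold changes changed sign. With the adipocyte covariate they were -1.24 for *Bst2*, -0.12 for *Gbp3*, -0.83 for *Ifit2*, -0.55 for *Ifnar2*, 0.72 for *Ifne*, -0.060 for *Irf1*, -0.13 for *Irf8*, -0.0077 for *Irgm1*, 0.24 for *Rnf213*, 0.032 for *Stat2* and -1.05 for *Zbp1*. With the leukocyte covariate they were -0.43 for *Bst2*, -0.63 for *Ifit2*, -0.11 for *Ifnar2*, 1.98 for *Ifne*, -0.12 for *Oasl2*, -0.14 for *Parp14*, -0.088 for *Samhd1* and -0.38 for *Zbp1*. Array weights gave -0.074 for *Bst2*, -0.10 for *Ifit2* and 0.17 for *Ifne*, and quantile normalization gave -0.0155 for *Bst2* and -0.00183 for *Parp14*. Leaving out 1 tumor at a time gave ranges that crossed 0 for 14 genes: -0.26 to 0.28 for *Bst2*, -0.34 to 0.0066 for *Cmpk2*, -0.65 to 0.28 for *Cxcl10*, -0.36 to 0.020 for *Eif2ak2*, -0.29 to 0.046 for *Herc6*, -0.36 to 0.13 for *Ifih1*, -0.34 to 0.45 for *Ifit2*, -0.030 to 0.40 for *Ifnar2*, -1.94 to 1.22 for *Ifne*, -0.34 to 0.16 for *Isg20*, -0.79 to 0.055 for *Oas1a*, -0.48 to 0.18 for *Oas3*, -0.33 to 0.23 for *Parp14* and -0.056 to 0.69 for *Zbp1*. The values of the interferon genes rest on few counts, and *Ifnb1* was at -2.94 with a pseudocount of 0.1.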

Other observations

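The Schlafen genes, which restrict growth and translation in immune cells, and the Ifi200 genes, which bind DNA in the nucleus and cytoplasm, are 2 further families that respond to interferon. Of 5 *Slfn* genes, 3 had higher and 2 had lower log2 means in knockout tumors, with log2 fold changes from -0.30 to 0.29 and a median of 0.018. *Slfn2* measured 2786, 2335 and 1851 normalized counts in WT tumors and 1062, 2937 and 2050 in knockout tumors, which made knockout tumor 1 the lowest, as for most antiviral members. Of 5 Ifi200 genes, 3 had higher and 2 had lower log2 means, from -0.71 for *Ifi213* to 0.99 for *Ifi205*. *Ifi205* measured 881, 963 and 400 in WT tumors and 749, 2159 and 1654 in knockout tumors, and the groups overlapped. None of these 10 genes passed an unadjusted p of 0.05 in limma, against 3.4% higher and 2.38% lower of all genes. That is no result about these families, and these genes were chosen for display after their values were seen.

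Of the 66 further interferon-stimulated genes outside the panel, 6 had wholly lower knockout values, against 5.33% of all genes, and 3 had wholly higher ones, against 5.18%. A pair of the 6 is shown, chosen after their values were seen. *Ddx60*, a helicase that promotes RIG-I signaling, measured 889, 712 and 770 normalized counts in WT tumors and 415, 502 and 529 in knockout tumors, with a log2 fold change of -0.71 (SE 0.23, adjusted p = 0.72 in limma). *Phf11d* measured 1968, 2265 and 1500 in WT tumors and 686, 1445 and 1029 in knockout tumors, with a log2 fold change of -0.90 (SE 0.30, adjusted p = 0.736 in limma).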
